A study of Homo sapiens with 6 samples.

Results

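Long noncoding RNAs whose gene symbol starts with LINC were followed after treatment of A549 cells, a line established from a human lung adenocarcinoma, with 2 code-named compounds. The members were chosen by level and name, which makes their levels a description: they are the probe sets that carry exactly 1 gene symbol, that symbol starting with LINC, and that had a mean log2 level of at least 5.0 over the 6 arrays. Of 666 LINC-named probe sets with 1 symbol, 134 reached that level and 532 did not. LINC00641 and LINC01347, which held 4 of the 134, were left out, and 130 probe sets of 123 genes remained, among 23871 probe sets with 1 symbol and 22395 genes in all. Both genes left out were lower under Comp.4 than under vehicle, with log2 fold changes of -0.94 (LINC00641, adjusted p = 0.0265) and -1.15 (LINC01347, adjusted p = 0.0265), and LINC00641 was also lower under Comp.2 (-0.78, adjusted p = 0.0234). LINC01347 was lower under Comp.4 than under Comp.2 (-0.92, adjusted p = 0.028). The choice of members therefore took out calls in all 3 comparisons.

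The groups were A549 cells treated with Comp.4 at 2 µM, A549 cells treated with Comp.2 at 2 µM, and A549 cells given vehicle, with 2 arrays each. All were cultured in DMEM with fetal bovine serum, treated a day after plating, and harvested for total RNA 2 days after treatment. The series title describes both compounds as histone acetyltransferase inhibitors that are specific for DNA sequence, and the stated purpose was to see how each changed gene expression across the genome. The labels do not say whether the 2 arrays of a group came from separate cultures, so p-values measure the spread between arrays, which may be technical.

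LINC symbols are numbered names for RNAs transcribed between protein-coding genes that have no long open reading frame. Even so, 14 of the 121 members placed in RefSeq gene order overlapped a protein-coding gene. A few are known to act at chromatin, as scaffolds or decoys for proteins or microRNAs, or as the template of a microprotein, and most have no known role. Histone acetyltransferases such as p300 and CBP act at promoters and enhancers, and many long intergenic RNAs start at such elements.

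All 6 arrays had medians between 4.55 and 4.56, so a change shared by most RNAs could not be seen. The median level of the 123 genes was 5.55 and 5.501 on the Comp.4 arrays, 5.518 and 5.575 on the Comp.2 arrays and 5.505 and 5.55 on the vehicle arrays. These arrays overlapped. The 5 epithelial markers EPCAM, KRT8, KRT18, KRT19 and CDH1 had levels from 6.57 to 10.23, while the alveolar markers SFTPA1, SFTPC and NKX2-1 lay between 2.96 and 4.72. Of the markers of other cell types that were measured, fibroblast markers lay between 2.78 and 5.44, endothelial markers between 4.02 and 4.44 and leukocyte markers between 2.69 and 6.02. None of the 16 passed the test in any comparison. In bulk RNA, fewer cells with a transcript and less transcript per cell cannot be told apart.

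The level cut gave no natural break. LINC00355, LINC00602 and LINC00920 lay just inside it at 5.00, 5.00 and 5.01, and LINC00421, LINC03027 and LINC02983 lay just outside at 4.98, 4.98 and 4.99. The mean fell below 5.0 in at least 1 group for 16 of the 123 genes. The signal of a probe set depends on its probes as well as on the RNA, so levels are used here to sort genes by brightness and not to say which RNA was more abundant.

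The starts of 5 members named below are shown, and no call of a change rests on them. LINC01000, also called below, had no start in the RefSeq promoter set. Each stretch is a RefSeq window of 300 bases in GRCh38.p14, from 250 bases before to 50 after the annotated start, read 5′ to 3′ on the gene's strand. The first pair is LINC01061 (chr4:119410611-119410910, minus strand) and LINC01002 (chr19:202160-202459, minus strand). Their windows were offset by 25 bases and were identical at 270 of the 275 bases that aligned (98.2%), and capitals mark the 5 bases that differed.
LINC01061: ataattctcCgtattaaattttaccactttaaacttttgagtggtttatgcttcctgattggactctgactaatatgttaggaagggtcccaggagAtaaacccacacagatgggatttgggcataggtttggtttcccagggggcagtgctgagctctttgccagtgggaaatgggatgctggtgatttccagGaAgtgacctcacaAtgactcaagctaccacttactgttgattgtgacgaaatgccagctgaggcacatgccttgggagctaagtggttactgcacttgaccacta
LINC01002: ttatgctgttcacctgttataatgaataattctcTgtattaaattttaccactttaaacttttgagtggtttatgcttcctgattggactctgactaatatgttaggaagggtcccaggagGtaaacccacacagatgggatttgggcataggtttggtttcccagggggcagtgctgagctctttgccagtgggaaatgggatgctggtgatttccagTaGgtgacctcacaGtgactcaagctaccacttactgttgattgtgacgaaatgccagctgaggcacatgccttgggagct
With positions counted from 1 at the 5′ end of the LINC01061 window and its base given first, the differences are C10T, A97G, G195T, A197G and A209G. Stretches of 31 bases of this window also occurred in the windows of 5 further genes of 4 chromosomes, among them LOC107986794 on chromosome 7 (82.6% of the stretches) and LINC01001 on chromosome 11 (38.5%).

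The other windows are those of LINC02595 (chrX:45851441-45851740, minus strand), LINC00294 (chr11:33075900-33076199, plus strand) and LINC00473 (chr6:165987990-165988289, minus strand). A set of 6 motifs were searched on both strands: CRE (TGACGTCA), the CRE half-site (TGACG, which lies within CRE), the E-box (CACGTG), AP-1 (TGANTCA), the GC box (GGGCGG) and the TATA box (TATAAA). Capitals mark their matches.
LINC02595: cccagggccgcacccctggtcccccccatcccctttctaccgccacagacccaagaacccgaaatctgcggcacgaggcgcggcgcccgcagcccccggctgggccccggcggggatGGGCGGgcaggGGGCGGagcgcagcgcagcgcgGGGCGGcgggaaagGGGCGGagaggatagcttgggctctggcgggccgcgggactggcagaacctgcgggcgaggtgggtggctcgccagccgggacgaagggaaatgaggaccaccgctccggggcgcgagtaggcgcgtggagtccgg
LINC00294: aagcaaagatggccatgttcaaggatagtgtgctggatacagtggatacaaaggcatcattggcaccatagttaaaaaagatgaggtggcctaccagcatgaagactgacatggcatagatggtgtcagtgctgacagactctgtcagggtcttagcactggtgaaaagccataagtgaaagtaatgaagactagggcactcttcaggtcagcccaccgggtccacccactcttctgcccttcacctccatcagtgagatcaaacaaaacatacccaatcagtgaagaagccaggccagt
LINC00473: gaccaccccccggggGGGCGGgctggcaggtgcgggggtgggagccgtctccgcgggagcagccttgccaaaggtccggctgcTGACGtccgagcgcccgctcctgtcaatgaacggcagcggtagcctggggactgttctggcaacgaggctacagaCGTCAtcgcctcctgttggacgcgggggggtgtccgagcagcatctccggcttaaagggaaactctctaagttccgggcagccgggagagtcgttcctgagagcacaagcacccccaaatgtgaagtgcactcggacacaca
The window of LINC02595 held 4 GC boxes. That of LINC00473 held 2 CRE half-sites and 1 GC box, and that of LINC00294 held no match. A match is a run of letters and not a binding site.

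Under Comp.4, 3 members were lower and none higher than under vehicle at an adjusted p under 0.05 in limma with Benjamini-Hochberg adjustment over all 22395 genes. The 3 were LINC01061, LINC01000 and LINC02595, each at slightly over 50% of its vehicle level. Over all genes, 0.0938% were called lower and 0.0536% higher. Members with unadjusted p under 0.05 numbered 21 lower and 6 higher, against 7.88% and 8.64% of all genes. Among all genes with a mean level of at least 5.0 those shares were 11.4% and 9.49%, and among the members 17.1% and 4.88%. The median log2 fold change of the members was -0.03, against 0.02 over all genes. The arrays of both groups did not overlap for 38 lower and 20 higher members, against 22.2% and 27.2% of all genes. Of the 12683 genes with a mean level of at least 5.0, 3711 were lower and 3577 higher in this way.

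LINC01061 had levels of 7.58 and 7.66 on the Comp.4 arrays, 8.41 and 8.38 on the Comp.2 arrays and 8.63 and 8.52 on the vehicle arrays. Both Comp.4 arrays lay below all 4 others. Its log2 fold change under Comp.4 was -0.95 (SE 0.08, 95% interval -1.14 to -0.77, adjusted p = 0.0265 in limma), a 1.93-fold fall. The other 2 member probe sets of LINC01061 gave -1.13 and -1.11. Under Comp.2 its log2 fold change was -0.18 (95% interval -0.37 to 0.01, adjusted p = 0.457 in limma).

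LINC01000 had levels of 8.27 and 8.41 on the Comp.4 arrays, 9.01 and 9.07 on the Comp.2 arrays and 9.31 and 9.26 on the vehicle arrays. Again the Comp.4 arrays lay below all others. The log2 fold change was -0.95 under Comp.4 (SE 0.08, adjusted p = 0.0265 in limma) and -0.25 under Comp.2 (adjusted p = 0.352). Its second member probe set disagreed. That one had levels of 6.09 and 6.04 on the Comp.4 arrays, 6.30 and 6.22 on the Comp.2 arrays and 6.30 and 6.01 on the vehicle arrays, a log2 fold change of -0.09 under Comp.4.

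The falls of LINC01061 and LINC01000 were read by probe sets of genes that share repeated sequence, and they cannot be assigned to 1 gene. Besides the near-identical starts of LINC01061 and LINC01002, the array held 7 probe sets, outside the members, whose annotation names LINC01061, LINC01000 or LINC01002 together with LINC01347 and other genes. On the mean of the arrays they differed between Comp.4 and vehicle by -0.71 to -1.17 and between Comp.2 and vehicle by -0.18 to -0.33 log2 units, and 2 of them held identical values. LINC01002 itself had levels of 5.56 and 5.58 on the Comp.4 arrays, 5.87 and 5.98 on the Comp.2 arrays and 6.19 and 6.18 on the vehicle arrays. Its log2 fold change under Comp.4, -0.61 (SE 0.07), missed the threshold (adjusted p = 0.0525 in limma). Without LINC01000, LINC01061 and LINC01002, a choice made after seeing the data, 1 member was called lower under Comp.4.

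That member is LINC02595, on the X chromosome. It had levels of 5.54 and 5.68 on the Comp.4 arrays, 6.11 and 6.11 on the Comp.2 arrays and 6.43 and 6.48 on the vehicle arrays. No array of one group overlapped another group, and the Comp.2 arrays lay between the others. The log2 fold change was -0.84 under Comp.4 (SE 0.08, adjusted p = 0.0401 in limma), a 1.79-fold fall, and -0.35 under Comp.2 (adjusted p = 0.223). The nearest measured protein-coding genes in RefSeq order, DIPK2B and KRABD4, had log2 fold changes of -0.15 and -0.25 under Comp.4 and neither passed the test.

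**Figure D1:**
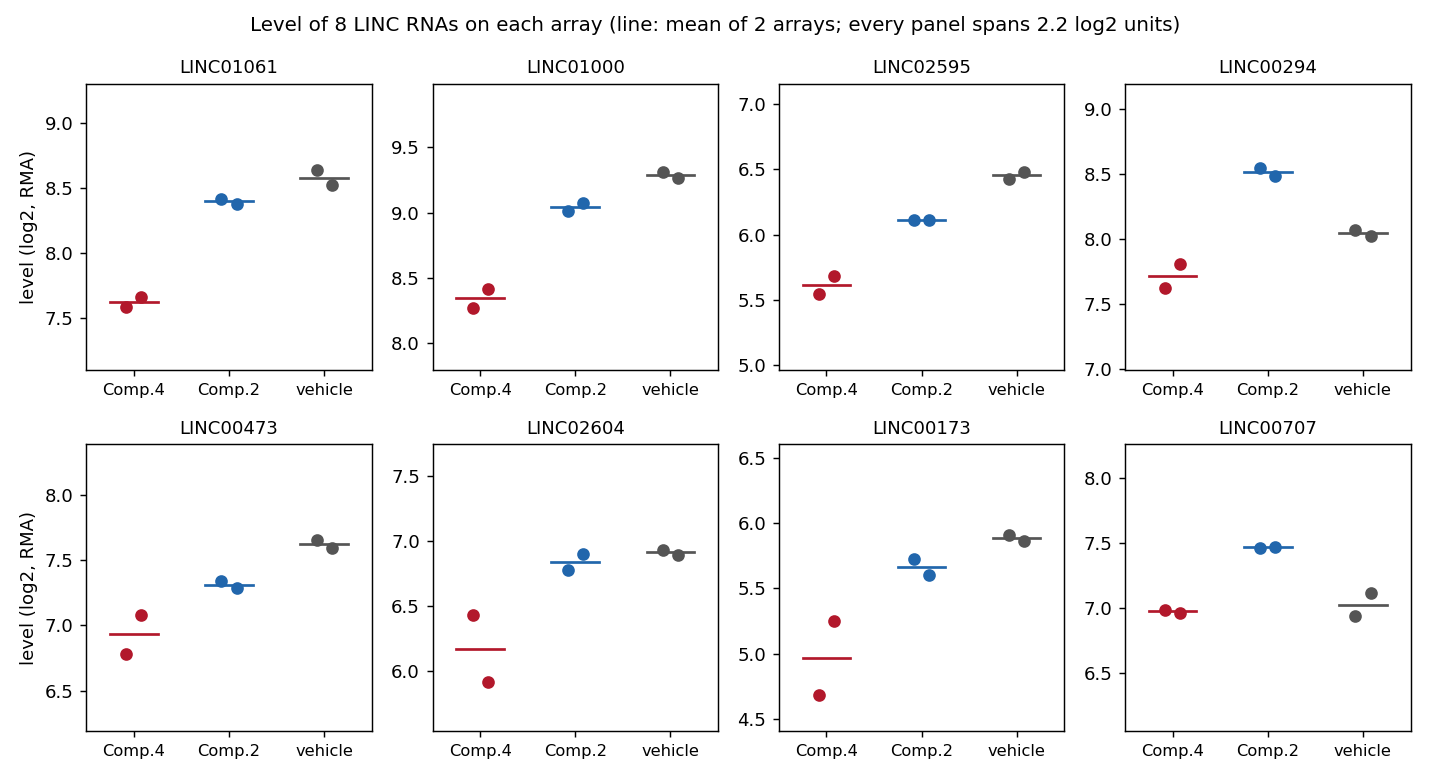
Log2 level (vertical axis) of 8 LINC RNAs on each array of the Comp.4, Comp.2 and vehicle groups, with a line at the mean of 2 arrays. LINC01061, LINC01000 and LINC02595 lie lowest under Comp.4, LINC00294 and LINC00707 highest under Comp.2, and the Comp.4 arrays of LINC00173 lie far apart at 4.69 and 5.25.

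Further members had similar or smaller differences under Comp.4 without passing the threshold. LINC00473, a transcript known to be induced by cyclic AMP through CREB and to be high in lung cancers that lack the kinase LKB1, had levels of 6.78 and 7.08 on the Comp.4 arrays, 7.34 and 7.29 on the Comp.2 arrays and 7.66 and 7.60 on the vehicle arrays. The order was the same as for LINC02595, with log2 fold changes of -0.69 under Comp.4 (SE 0.11, adjusted p = 0.0756 in limma) and -0.31 under Comp.2 (adjusted p = 0.371). LINC02604 had 6.43 and 5.92 on the Comp.4 arrays, 6.78 and 6.90 on the Comp.2 arrays and 6.93 and 6.89 on the vehicle arrays. LINC00173 had 4.69 and 5.25 on the Comp.4 arrays, 5.73 and 5.61 on the Comp.2 arrays and 5.91 and 5.86 on the vehicle arrays. For both, the Comp.4 arrays lay below the rest but differed from each other by over 0.5 log2 units. The log2 fold change was -0.74 for LINC02604 (adjusted p = 0.117 in limma) and -0.92 for LINC00173 (adjusted p = 0.0982). A second LINC00173 probe set, below the level cut at 3.50, went the other way with 0.25. LINC00997 gave -0.48 (adjusted p = 0.138) and LINC00266-1, reported to encode a microprotein, gave -0.37 on its brightest probe set and -0.29 and -0.21 on the other 2.

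The differences upward under Comp.4 were smaller, and the 6 largest among members whose arrays did not overlap are given here. LINC02139 had levels of 5.81 and 5.48 on the Comp.4 arrays, 5.28 and 5.25 on the Comp.2 arrays and 5.31 and 5.04 on the vehicle arrays, a log2 fold change of 0.47 (adjusted p = 0.175 in limma). The next were LINC01451 at 0.38, LINC02908 at 0.38 and LINC00485 at 0.31, with adjusted p from 0.119 to 0.175. LINC00485 had a mean of 5.03 over the 6 arrays, with vehicle and Comp.2 means below 5.0. It passed the level cut only through its Comp.4 arrays, so its rise is a description and no support for a change. LINC00671 and LINC00028 gave 0.23 and 0.22. All 6 had mean levels below 5.5.

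Under Comp.2 no member was called higher or lower, against 0.134% and 0.0625% of all genes. Members with unadjusted p under 0.05 numbered 6 higher and 8 lower, against 6.23% and 4.94% of all genes (7.05% and 6.22% of genes at 5.0 or above), and the median log2 fold change was -0.02, against 0.00 over all genes. Arrays did not overlap for 18 higher and 27 lower members, against 22.7% and 21% of all genes. Of the 12683 genes at 5.0 or above, 2970 were higher and 3277 lower in this way. The largest rise in value was that of LINC00294, which had levels of 7.62 and 7.81 on the Comp.4 arrays, 8.54 and 8.48 on the Comp.2 arrays and 8.07 and 8.02 on the vehicle arrays. Its Comp.2 arrays lay above and its Comp.4 arrays below the vehicle arrays. The log2 fold changes were 0.47 under Comp.2 (SE 0.09, adjusted p = 0.146 in limma) and -0.33 under Comp.4 (adjusted p = 0.154). LINC00707, studied as a growth-promoting RNA in lung cancer, had 6.99 and 6.97 on the Comp.4 arrays, 7.47 and 7.47 on the Comp.2 arrays and 6.94 and 7.11 on the vehicle arrays. Only its Comp.2 arrays stood apart, with a log2 fold change of 0.44 (adjusted p = 0.146). LINC00862 gave 0.45 under Comp.2 (adjusted p = 0.32), from levels of 6.13 and 6.0 on the Comp.2 arrays and 5.82 and 5.42 on the vehicle arrays. The lowest value was that of LINC00896, -0.39 (adjusted p = 0.493). Its arrays were far apart within groups, at 4.64 and 5.01 under Comp.2 and 5.36 and 5.05 under vehicle.

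Comparisons of each compound with vehicle share the vehicle arrays, so the compounds were also compared directly, since dose and day matched. Comp.4 was lower than Comp.2 for 3 members and higher for none, against 0.179% and 0.192% of all genes. The 3 were LINC00294 (log2 fold change -0.80, SE 0.09, 95% interval -1.001 to -0.589, adjusted p = 0.029 in limma), LINC01061 (-0.77, SE 0.08, adjusted p = 0.0259) and LINC01000 (-0.70, SE 0.08, adjusted p = 0.0315). Members with unadjusted p under 0.05 numbered 24 lower and 7 higher, against 7.45% and 7.52% of all genes (10.2% and 9.07% of genes at 5.0 or above), and the median log2 fold change was -0.03, against 0.01 over all genes. The arrays of both compounds did not overlap for 36 lower and 20 higher members, against 21.6% and 23.7% of all genes. Of the 12683 genes at 5.0 or above, 3408 were lower and 3295 higher in this way. LINC02595 missed the threshold in this comparison, with -0.50 (95% interval -0.68 to -0.31, adjusted p = 0.0716). So did LINC00862 (-0.73, adjusted p = 0.0941), LINC00707 (-0.49, adjusted p = 0.0806) and LINC00473 (-0.38, adjusted p = 0.192). On the other side, LINC01565 gave 0.41 (adjusted p = 0.0989) and LINC00485 gave 0.39 (adjusted p = 0.0903). As said above, LINC00485 passed the level cut only through its Comp.4 arrays. For LINC00857 the compounds gave nearly the same value, with a log2 difference of 0.01 and a 95% interval from -0.29 to 0.30, which does not show that they act alike.

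Every call of a member needed all of the arrays. With any 1 of the 6 arrays left out, 1 group held a single array. Across these fits the log2 fold change under Comp.4 stayed between -1.01 and -0.89 for LINC01061 and between -1.02 and -0.88 for LINC01000. For LINC02595 it stayed between -0.91 and -0.77. A variance trend with level, the other way round, called many more: 14 members lower under Comp.4 against 3.3% of all genes (2.18% higher), 14 lower under Comp.4 than Comp.2 against 2.64% (2.16% higher), and 2 higher under Comp.2, LINC00294 and LINC00707, against 1.01% (0.723% lower). How many of all genes lost their call without 1 array was not counted, so that loss is not particular to the members.

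**Figure D2:**
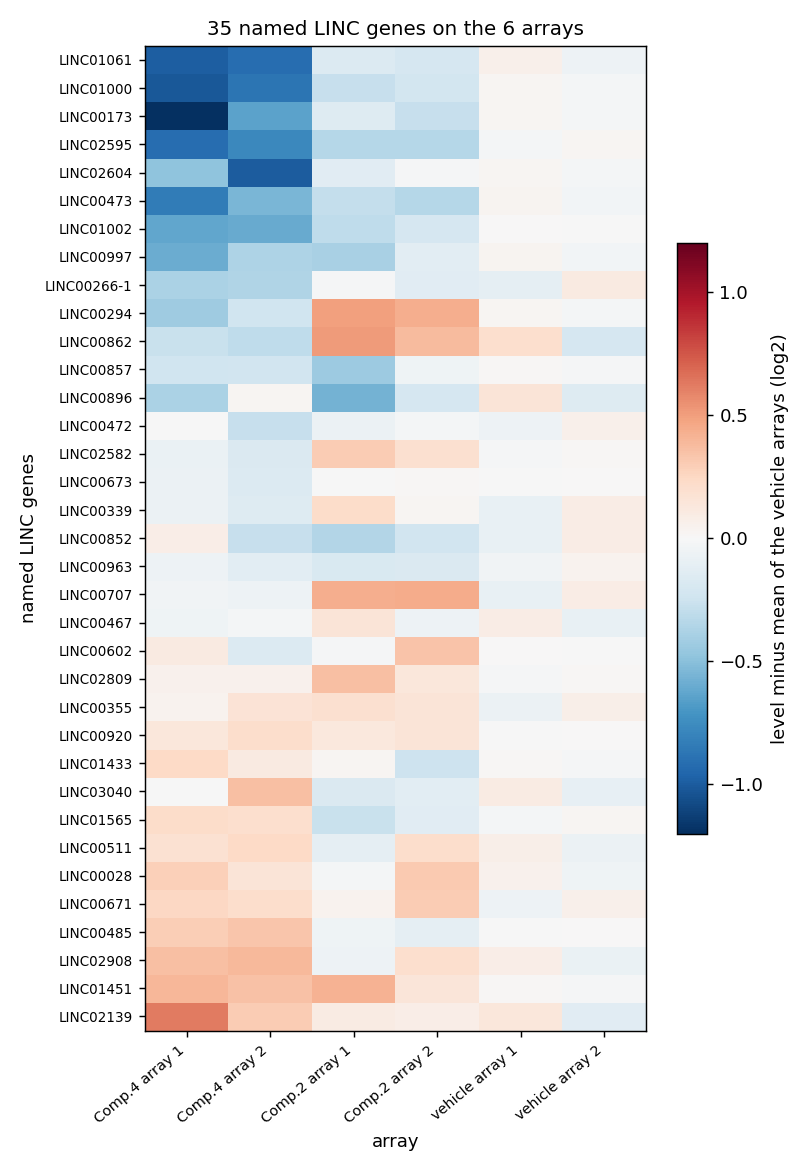
Level of each of the 35 LINC genes named by rule (rows, ordered by the Comp.4 log2 fold change) on each of the 6 arrays (columns), as the log2 difference from the mean of the vehicle arrays. Blue is lower and red higher; the upper rows are blue on the Comp.4 arrays, and LINC00294, LINC00862 and LINC00707 are red on both Comp.2 arrays.

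Under Comp.4 the members with brighter probe sets had the more negative values. Of the 18 members with a mean level of 7 or above, 17 had a log2 fold change below 0, 12 had an unadjusted p under 0.05 in the lower direction and 2 were called lower, with a median of -0.31. Of all 5696 genes at that level, 54.6% lay below 0. Such a p was found for 15.3% in the lower direction and 10.4% in the higher, and 8 genes were called lower. Of the 19 members between 6 and 7, 16 lay below 0, with a median of -0.11, against 49.2% of all genes between these levels. The 26 between 5.5 and 6 had a median of -0.02 and the 60 between 5 and 5.5 had 0.06. Of the 37 members at 6 or above, 33 lay below 0, against 52.7% of all 8884 genes at that level. An unadjusted p under 0.05 in the lower direction was found for 17 and in the higher for none, against 13.6% and 9.73% of those genes. Besides genes already given, the 37 members include LINC00842 (-0.44, adjusted p = 0.109) and LINC03009 (-0.56, adjusted p = 0.0794), both picked after their values were seen.

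Genes of other kinds with probe sets as bright did not show this median. The 36 other genes that RefSeq classes as long noncoding RNA with a level of 7 or above had a median log2 fold change under Comp.4 of 0.04, with 17 below 0, and 5451 protein-coding genes had -0.02, with 55.1% below 0. At 6 or above the medians were -0.22 for the members, 0.02 for 126 other long noncoding RNA genes and -0.01 for 8250 protein-coding genes. Under Comp.2 the members at 7 or above had a median of -0.15, with 12 of 18 below 0, and those at 6 or above -0.08. These differences between kinds of gene were not tested. Without any 1 array, the Comp.4 median of the members at 6 or above lay between -0.24 and -0.14. The copies of 1 repeat, above, count more than once in it.

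**Figure D3:**
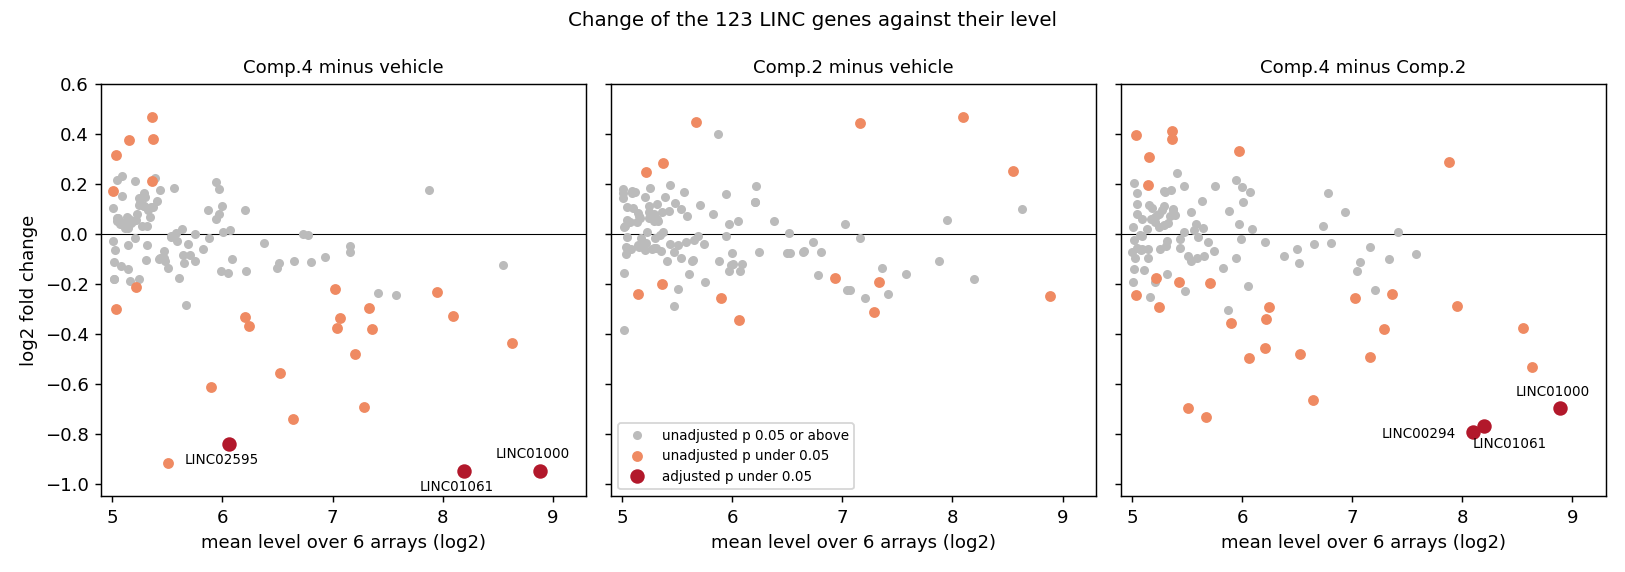
Log2 fold change (vertical axis) of each of the 123 LINC genes against its mean log2 level over 6 arrays, for Comp.4 minus vehicle, Comp.2 minus vehicle and Comp.4 minus Comp.2. Dark red marks the members past the adjusted threshold, 3 in the first comparison, 0 in the second and 3 in the third; under Comp.4 the brighter genes lie mostly below 0.

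Across the 123 genes, Pearson's r between level and log2 fold change was -0.55 for Comp.4 against vehicle and -0.16 for Comp.2 against vehicle. For Comp.4 against Comp.2 it was -0.48. This describes genes of the same 6 arrays, which are not independent replicates, and the mean level contains the arrays that are compared. Over all genes r was not computed. Their median under Comp.4 was 0.04 at levels of 5 to 5.5 and -0.02 at 7 or above. The median within-group SD was 0.11 log2 units for the members and also for the 409 other long noncoding RNA genes at 5.0 or above. Over all genes it was 0.09, and 0.08 over those at 5.0 or above.

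**Figure D4:**
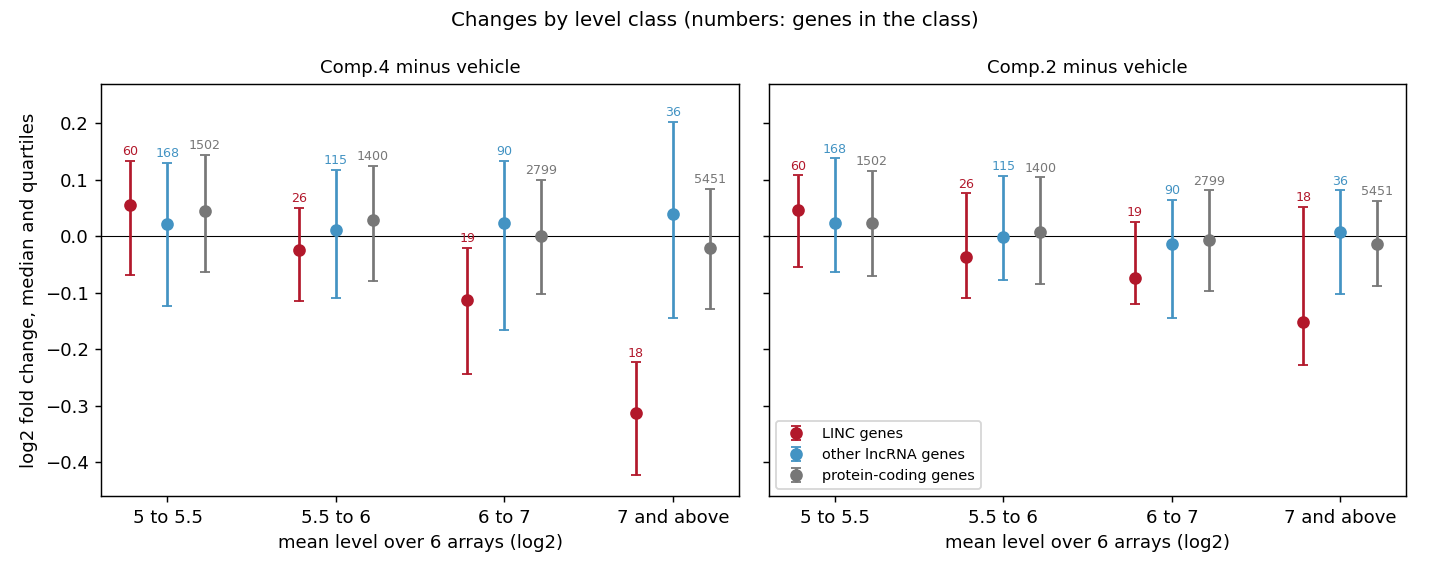
Median log2 fold change (points) with quartiles (bars) for LINC members, other long noncoding RNA genes and protein-coding genes in 4 classes of mean log2 level, for Comp.4 minus vehicle and Comp.2 minus vehicle, with the number of genes above each bar. The LINC median under Comp.4 is 0.06 in the dimmest class and -0.31 in the brightest, where the other kinds of gene stay near 0.

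Of 23 LINC genes written down as studied in cancer cells, 20 were measured and 8 are members: LINC00473, LINC00511, LINC00673, LINC00339, LINC00472, LINC00707, LINC00857 and LINC00963. None of the 20 passed the test in any comparison. Their medians were -0.06 for Comp.4 against vehicle and -0.01 for Comp.2 against vehicle, and under each compound 2 had an unadjusted p under 0.05 in the lower direction and 1 in the higher. Over all genes those shares were 7.88% lower and 8.64% higher under Comp.4, and 4.94% lower and 6.23% higher under Comp.2. LINC00673 had levels of 6.48 and 6.39 on the Comp.4 arrays, 6.55 and 6.57 on the Comp.2 arrays and 6.56 and 6.56 on the vehicle arrays. Its Comp.4 arrays lay below the other 4, with a log2 fold change of -0.12 under Comp.4 (adjusted p = 0.462 in limma) and 0.00 under Comp.2 (adjusted p = 0.998). LINC00963 gave -0.09 under Comp.4 and -0.18 under Comp.2.

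Of 8 genes with a current or former LINC symbol that encode a microprotein, all were measured, 2 are members (LINC00467 and LINC00266-1) and none passed the test. LINC00467 had log2 fold changes of -0.04 under Comp.4 and 0.05 under Comp.2. The list had a median of 0.11 under Comp.4 and 0.02 under Comp.2, and 4 of its genes, MRLN, SMIM26, SMIM30 and SPAAR, had an unadjusted p under 0.05 in the higher direction under Comp.4, while LINC00266-1 and NBDY had one in the lower direction, against 8.64% and 7.88% of all genes. Of 12 symbols of p53-linked long noncoding RNAs, 5 genes were measured. Under Comp.2, 3 of them had an unadjusted p under 0.05 in the higher direction and 0 in the lower, against 6.23% and 4.94% of all genes. Under Comp.4, 2 had one in the lower direction and 0 in the higher, against 7.88% and 8.64%. These 2 were PURPL and LINC-PINT (log2 fold change -0.42), which lay below the level cut at 4.94. PURPL, formerly LINC01021, a p53-induced RNA that restrains p53, had levels of 6.22 and 6.28 on the Comp.4 arrays, 7.38 and 7.51 on the Comp.2 arrays and 6.40 and 6.55 on the vehicle arrays. It rose under Comp.2 (log2 fold change 0.97, adjusted p = 0.0226 in limma) and was lower under Comp.4 than under Comp.2 (-1.196, adjusted p = 0.0166). Its present symbol keeps it out of the members. Of 20 long noncoding RNAs under other names, 16 were measured, with a median of -0.11 under Comp.4. Of the 16, 6 had an unadjusted p under 0.05 in the lower direction under Comp.4 and 0 in the higher. The shares over all genes were 7.88% and 8.64%. FTX fell (-1.07, adjusted p = 0.0425 in limma).

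Of the 123 members, 97 had a window in the RefSeq promoter table, which holds 27305. The motif shares were close to those of the table, at 2.06% of the members and 1.98% of all windows for CRE, 32.0% and 25% for the CRE half-site, 7.22% and 7.43% for the E-box, 8.25% and 7.76% for AP-1, 39.2% and 44.6% for the GC box and 15.5% and 12.0% for the TATA box. Both members with a full CRE, LINC00265 and LINC00630, had negative values under Comp.4, -0.34 and -0.38, and neither passed the adjusted threshold. A second, dimmer probe set of LINC00265 gave 0.03. Both genes are among the 18 members with a mean level of 7 or above, of which 17 lay below 0. They are named here for their motif, with their values already seen. Median GC content was 61.0% in the members and 58.3% in all windows. In 9 members over 50% of the stretches of 31 bases also occurred in another gene's window, on either strand. Windows of neighbouring genes over the same bases were not told apart from copies elsewhere, and the share over all windows was not counted.

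Neighbouring protein-coding genes were read for the members that passed a test. METTL2B, next to LINC01000 in RefSeq order, fell under Comp.4 (log2 fold change -0.68, adjusted p = 0.0425 in limma) and was lower under Comp.4 than under Comp.2 (-0.60, adjusted p = 0.043), while GARIN1A on the other side gave -0.25 under Comp.4 (adjusted p = 0.255). TCP11L1, next to LINC00294, was lower under Comp.4 than under Comp.2 (-0.62, adjusted p = 0.0385), with 0.34 under Comp.2 and -0.28 under Comp.4 against vehicle, and CSTF3 gave -0.20 between the compounds. FABP2 and PDE5A, beside LINC01061, gave 0.06 and 0.05 under Comp.4. The fall read by the brighter LINC01000 probe set cannot be assigned to that gene, and its second probe set gave -0.09. Over all 213 measured pairs of a member and a flanking gene, Pearson's r of the log2 fold changes was 0.19 for Comp.4 against vehicle and 0.15 for Comp.4 against Comp.2. This describes genes of the same arrays, and a few flanking genes may be placed by alternate sequences of the assembly. Protein-coding genes that overlap a member were not counted as flanking. Order in the table does not show shared transcription.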

How the data were processed

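Total RNA of 6 A549 samples was run on whole-transcript arrays of Affymetrix. The deposited table holds 1 log2 value for each of 53617 probe sets and 6 arrays, log2 values that the authors computed by RMA, per the submitters' processing notes. Transcriptome Analysis Console 2.0 and Expression Console 1.3.1 appear in those notes without a stated step. The genome build behind the probe sets is not given in the sources used here. Scanner files were not used here. Groups came from the sample titles.

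Of the probe sets, 23871 had 1 gene symbol, 1842 several and 27904 none in the platform annotation; 22566 of the single-symbol ones matched RefSeq genes of GRCh38.p14 by Entrez number, which updated 90 symbols, and 121 of the 123 members matched, all classed as long noncoding. Where a gene had several probe sets, the one with the highest mean stood for it (22395 genes; for 5 member genes, 7 further member probe sets are given where they bear on a result). With limma 3.58.1 in R 4.3.3, each group's mean was estimated from 1 model of the 6 arrays, with 3 residual and 3.71 prior degrees of freedom. P-values are two-sided and adjusted by Benjamini-Hochberg over all 22395 genes, at a threshold of 0.05. The number of arrays limits the precision. An exact permutation test of 2 against 2 arrays cannot go below p = 0.333, so none was run. The code was tested on simulated data.

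Members named are those past the threshold, the 6 largest rises and 6 largest falls of each comparison among genes whose arrays did not overlap, list members, and those next to the level cut; others are marked as picked after their values were seen. The members and lists were chosen with earlier results of these data known. Alternatives covered the variance trend, the genes and arrays fitted, centring, the level cut, the replicate block and each array left out.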

Additional observations from a re-analysis of the deposited data

Results flagged for a closer look

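A direct test at matched dose and day separated the 2 compounds in 3 members. The log2 fold change of Comp.4 against Comp.2 was -0.795 for LINC00294, -0.771 for LINC01061 and -0.699 for LINC01000, with adjusted p of 0.029, 0.0259 and 0.0315 in limma. LINC00294 is the one whose compounds lay on opposite sides of vehicle, with 0.47 under Comp.2 and -0.33 under Comp.4, neither past the threshold against vehicle. LINC01061 and LINC01000 share repeated sequence and are not independent of each other. No group held enough arrays for a search for outlying arrays.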

How the results depend on the processing

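Of 1335 values of the named members under the alternatives, 28 had another sign than the value reported, all of values of at most 0.18 in size and none of a value past the threshold. The number of members past the threshold did depend on the setting. Members lower under Comp.4 than vehicle numbered 3; they numbered 14 with a variance trend, 15 among genes at or above the median level, 5 with LINC00641 and LINC01347 counted, 1 without LINC01000, LINC01061 and LINC01002 (added after seeing the data), and 0 with the arrays of the 2 groups alone. Members lower under Comp.4 than Comp.2 numbered 3; they numbered 4 with the 2 left-out genes counted, 14 with the trend, 13 among genes at or above the median level (where 1 was higher), 1 without the 3 repeat genes, and 0 with all probe sets of the table fitted or with the arrays of the 2 groups alone. Under Comp.2 against vehicle, where none passed, 2 were higher with the trend and 2 among genes at or above the median level, and 1 was lower with the 2 left-out genes counted; with the trend the 2 were LINC00294 and LINC00707. Over all genes the trend called 2.18% higher and 3.3% lower under Comp.4. The fit of genes at or above the median level held only 75 of the 123 members. The share of all genes called was not counted in that fit, in the fit of all probe sets or in the fits of 2 groups alone. Nor was it counted with the replicate block or without 1 array. With the replicate number as a block, 0 members were lower under Comp.4 against vehicle and 0 against Comp.2. The numbers were not taken to pair the arrays, because the labels do not say that a number marks a shared culture or day. The deviations of same-numbered arrays correlated at 0.029, 0.012 and -0.042. With each array left out in turn, which left 1 array in a group, no call of a member held. The median of the members then lay between -0.0244 and 0.0055 for Comp.2 against vehicle. It lay between -0.0394 and -0.0215 for Comp.4 against vehicle and between -0.0699 and -0.0139 for Comp.4 against Comp.2. With other level cuts the median for Comp.4 against vehicle was 0.0103 at 4.5 and -0.2197 at 6.0, and -0.0986 among genes at or above the median level; for Comp.4 against Comp.2 it was -0.1491 at 6.0 and -0.0697 at the median level; for Comp.2 against vehicle it was -0.0761 at 6.0 and -0.0696 at the median level. The causes of these shifts were not tested.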
